A study of Mus musculus with 3 samples.

Results

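The 8 genes followed here encode 5 chemokine ligands (Ccl8, Ccl11, Ccl24, Ccl17 and Ccl22) and 3 of their receptors (Ccr3, Ccr4 and Ccr8), in the lungs of mice exposed to particles, or to particles and an allergen. They were chosen by gene symbol, and all 8 had a value in each library, out of 23183 genes in all. Chemokines are small secreted proteins that guide white blood cells into tissue. The eotaxins CCL11 and CCL24 act on CCR3, the main chemokine receptor of eosinophils. CCL17 and CCL22, made largely by dendritic cells and macrophages, act on CCR4 of type 2 helper and regulatory T cells, and in the mouse CCL8 and CCL1 act on CCR8 of such T cells. In allergic airways the cytokines IL-4 and IL-13, acting through the transcription factor STAT6, are known inducers of several of these ligands.

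Lung homogenate RNA of female BALB/c mice was sequenced as 3 libraries, 1 library per group. For age, one label has 10 weeks and another 5 to 6 weeks, and the labels name no mutation or transgene in any group. The control group carries only the label control, and its vehicle is not given. The PM10 group received PM10, a certified reference dust, through the nose on 4 occasions within 2 weeks, at 100 or 200 µg in 20 µL of saline, and which dose was sequenced is not stated. The OVA+PM10 group received these particles and also ovalbumin (OVA, an egg-white allergen): 20 µg with 1% aluminium hydroxide into the abdomen on day 0 or 1 (the labels differ) and again on day 14, followed by 30 µL at 1 mg/mL through the nose on days 21, 22 and 23, with tissue taken 2 days later. The labels give 5 mice per group and do not say whether a library pooled them. Mice given OVA alone were not analysed here, so the effects of OVA and of its combination with particles cannot be told apart. As each group is 1 library, no difference has a replicate check, no p-value is given, and a ratio compares 2 libraries rather than 2 conditions.

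Levels are in FPKM, sequenced fragments per kilobase of transcript per 1000000 mapped (single reads may have been counted instead), so that genes can be set side by side within a library. Where 3 levels are given in a row, they belong to control, PM10 and OVA+PM10, in that order. The steps between the lowest levels put the depth at about 19.3, 12.8 and 14.8 times 1000000 reads, and 1 read in a transcript of 1 kilobase at 0.0518, 0.0782 and 0.0675 FPKM. All 11 defining genes of lung epithelium and vessels were at 1 FPKM or more in every library. The control library stood apart in genes of other tissues. In these, 10 squamous epithelium genes summed to 4385, 0.94 and 4.24 FPKM. The sums were 4976, 21.6 and 31.1 FPKM for 10 skeletal muscle genes and 442, 49.6 and 179 FPKM for 8 adipose genes. The 9 genes of lymph node stroma and thymus summed to 225, 41.2 and 100.1 FPKM. Most of the control sum was the lymph node vessel gene Glycam1, at 134, 0 and 0.711 FPKM. The 5 of these genes at 1 FPKM or more in a library of the pair had a median log2 ratio to control of -1.01 with PM10. With OVA+PM10 that median was -0.006. The part of such tissue in the differences reported here was not tested. Ratios are log2 of FPKM + 1, which understates the change of low genes, and a gene is called higher or lower at 2-fold or more if the higher library of the pair has at least 1 FPKM. Printed fold values compare FPKM with nothing added, whereas calls and the words within 2-fold go by the log2 ratio. Scaling the libraries to an equal FPKM sum ("equal sums" from here on) would move the median gene by about -1.02 (PM10 against control), -0.57 (OVA+PM10 against control) and 0.48 (OVA+PM10 against PM10). Without scaling, 13.6% of all genes were called higher and 13.9% lower in the first of these. The shares were 9.95% and 8.68% in the next, and 11.8% and 9.0% in the last. With equal sums, they were 1.76% and 51.2%, 4.3% and 24.1%, and 24.0% and 2.4%, in the same order. Counts given for gene lists stand beside the shares of the same scale. A count near its share is no result about the list. A gene under 1 FPKM in one library of a pair passed only through the library where it was high, and could be called in that direction alone. In bulk tissue, fewer cells of a type and less RNA per cell cannot be told apart.

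Among the ligands, Ccl8 and Ccl11 were lowest with PM10 and highest with OVA+PM10, Ccl17 was high in both exposed libraries and highest with particles alone, Ccl24 was high in the OVA+PM10 library and low in the others, and Ccl22 differed least. The 250 bases before the start site of the RefSeq entry are shown first for 4 of the genes. Ccl8 and Ccl17 are shown because they differed from control in opposite directions with PM10, although they have transcripts of nearly the same length (511 and 514 bases). Ccl22 is shown as the neighbour of Ccl17, and Ccr3 as the receptor that was low together with Ccl8 and Ccl11. Sequences are those of the GRCm38.p6 reference (RefSeq), not of BALB/c, and 6 of the 8 genes matched, Ccl11 and Ccl24 being without an entry. The RefSeq start lay within 1 base of the gene start given below (GENCODE) for Ccl8, Ccl17 and Ccr3, but 19 bases inside the gene for Ccr8, 94 for Ccl22 and 8372 for Ccr4, so their windows overlap the annotated gene. Capitals mark matches on either strand to TTCNNNNGAA, the spacing bound by STAT6, to TTCNNNGAA, the spacing of other STAT factors, to the NF-kB consensus and to TATAAA.
Ccl17, chr8:94810203-94810452, plus strand: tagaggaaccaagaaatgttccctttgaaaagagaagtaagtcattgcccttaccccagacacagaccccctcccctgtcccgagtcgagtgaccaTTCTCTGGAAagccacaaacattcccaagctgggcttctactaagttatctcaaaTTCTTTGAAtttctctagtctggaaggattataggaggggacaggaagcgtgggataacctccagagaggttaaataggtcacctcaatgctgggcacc
Ccl22, chr8:94745434-94745683, plus strand: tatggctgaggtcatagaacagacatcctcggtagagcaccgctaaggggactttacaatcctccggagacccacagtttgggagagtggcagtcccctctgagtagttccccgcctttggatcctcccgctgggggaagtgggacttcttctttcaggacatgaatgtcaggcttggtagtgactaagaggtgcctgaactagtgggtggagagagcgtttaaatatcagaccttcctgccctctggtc
Ccl8, chr11:82114935-82115184, plus strand: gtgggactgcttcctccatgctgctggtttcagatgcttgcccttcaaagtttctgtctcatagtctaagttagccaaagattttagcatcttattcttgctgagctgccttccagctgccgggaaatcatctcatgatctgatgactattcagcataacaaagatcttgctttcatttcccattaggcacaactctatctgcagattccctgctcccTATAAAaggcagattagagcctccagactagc
Ccr3, chr9:124021721-124021970, plus strand: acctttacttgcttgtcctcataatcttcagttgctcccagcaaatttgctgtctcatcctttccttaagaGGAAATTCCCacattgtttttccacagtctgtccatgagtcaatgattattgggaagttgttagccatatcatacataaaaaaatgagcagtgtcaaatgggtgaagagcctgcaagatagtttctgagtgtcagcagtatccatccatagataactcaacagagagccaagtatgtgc

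Of the 6 promoters searched, that of Ccl17 held a match to each STAT spacing, TTCTCTGGAA from 154 to 145 bases and TTCTTTGAA from 99 to 91 bases before the start site. Among 32841 mouse promoters of the same 250 bases, 5.85% held TTCNNNNGAA and 7.02% held TTCNNNGAA. The promoter of Ccl8 held TATAAA from 32 to 27 bases before the start, as 12.4% of promoters did anywhere in this window. That of Ccr3 held the NF-kB consensus on the minus strand, from 179 to 170 bases before the start, as did 7.25% of promoters. No match to these 4 motifs was found in the Ccl22, Ccr4 and Ccr8 windows. One more motif, GATAAG, the core bound by GATA factors, was also searched and found once, in the window of Ccr8 from 240 to 235 bases before the start, and 6.55% of promoters held it. The motifs did not overlap each other in the sequences shown. A match describes letters, not a binding site.

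Ccl8 (chromosome 11, 82115185 to 82116799, mm10), the mouse ligand of CCR8, was the most abundant of the 8 genes in control and OVA+PM10 lung. Its level was 143 FPKM in control, 12.3 FPKM with PM10 and 972 FPKM with OVA+PM10. The PM10 value is the low one, and the other exposed library lies 78.7-fold above it. The log2 ratio to control was -3.43 with PM10 and 2.76 with OVA+PM10. Between the exposed libraries it was 6.19, ranking 11th from the top among 13556 genes. The levels rest on about 1408, 80.7 and 7357 reads. Ccl1, the other CCR8 ligand, was far less abundant, at 0.149, 0 and 2.86 FPKM.

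Ccl11 (chromosome 11, 82057823 to 82062955), eotaxin-1, which fibroblasts, smooth muscle and epithelium make, had 50.04 FPKM in control, 2.67 FPKM with PM10 and 95.2 FPKM with OVA+PM10. PM10 was again the low library, 18.7-fold under control, with a log2 ratio of -3.80 that ranked 132nd from the bottom among 13693 genes. The log2 ratio of OVA+PM10 was 0.92 to control, under the 2-fold threshold (0.28 with equal sums), and 4.71 to PM10. The low level with particles rests on about 37.0 reads.

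Ccl24 (chromosome 5, 135569937 to 135573049), eotaxin-2, mainly a macrophage product, had another pattern than Ccl11. Its level was 2.57 FPKM in control, 2.33 FPKM with PM10 and 30.3 FPKM with OVA+PM10, so that OVA+PM10 alone stood out, 11.8-fold above control (log2 ratio 3.13) and with a log2 ratio of 3.23 to PM10. PM10 and control differed by a log2 ratio of -0.10, which was -0.996 with equal sums and -0.90 with the trend over transcript length removed. The ratio of Ccl11 to Ccl24 was 19.5 in control, 1.15 with PM10 and 3.14 with OVA+PM10. Summed over both eotaxins, the level was 52.6, 5.00 and 125.5 FPKM.

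Ccl17 (chromosome 8, 94810453 to 94812036), a ligand of CCR4 made by dendritic cells and macrophages, stood at 8.84 FPKM in control, 203 FPKM with PM10 and 106 FPKM with OVA+PM10, on about 87.8, 1335 and 806 reads. Both exposed libraries lay far above control. The log2 ratio to control was 4.37 with PM10, ranking 13th from the top of 13693 genes, and 3.44 with OVA+PM10, ranking 37th of 13877. Between the exposed libraries the log2 ratio was -0.93, within 2-fold (-0.34 with equal sums). Ccl22 (chromosome 8, 94745590 to 94751699), the other CCR4 ligand, had 4.82, 8.56 and 13.6 FPKM. Its log2 ratio to control was 0.72 with PM10, within 2-fold and -0.36 with equal sums, and 1.32 with OVA+PM10, which was 0.77 with equal sums and 0.92 with 5 FPKM added in place of 1. Ccl17 had 1.83 times the level of Ccl22 in control, 23.7 times with PM10 and 7.80 times with OVA+PM10. Their longest transcripts have 514 and 2216 bases, and these multiples are not corrected for length. With the trend over transcript length removed, the log2 ratio of PM10 to control was 3.02 for Ccl17 and 0.45 for Ccl22.

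**Figure D1:**
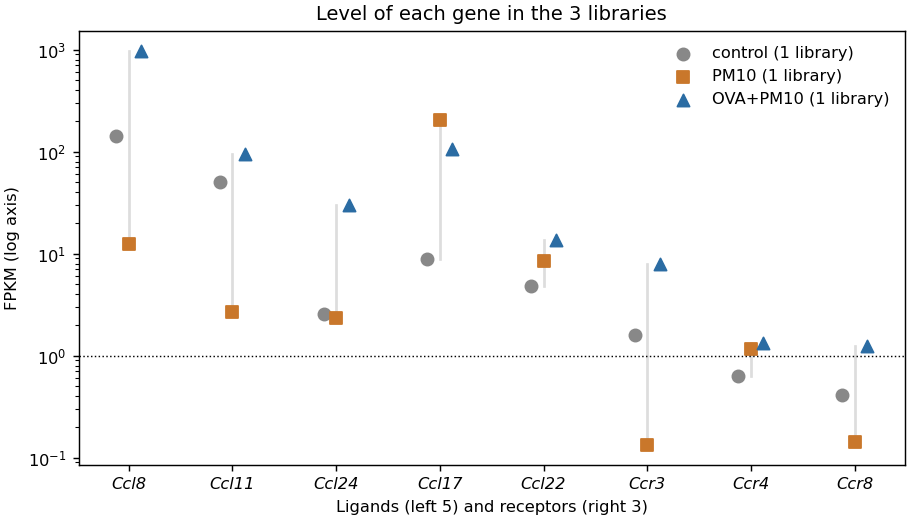
FPKM (log axis) of the 5 ligands and 3 receptors, 1 point per library and gene, with a dotted line at 1 FPKM. In the PM10 library Ccl8, Ccl11, Ccr3, Ccr8 and, by little, Ccl24 have their lowest value and Ccl17 its highest, 203 FPKM.

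The receptors were all low. Ccr3 (chromosome 9, 124021972 to 124031689), the eotaxin receptor, had 1.59 FPKM in control, 0.133 FPKM with PM10 and 7.86 FPKM with OVA+PM10, an order it shared with Ccl8 and Ccl11. The log2 ratio to control was -1.19 with PM10 and 1.78 with OVA+PM10, and between the exposed libraries it was 2.97. With 5 FPKM added in place of 1, the ratios to control were -0.36 and 0.965, both within 2-fold. The level with PM10 rests on about 5.6 reads, against about 100.3 in control and 381 with OVA+PM10.

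Ccr4 (chromosome 9, 114490316 to 114504916), the receptor of CCL17 and CCL22, had 0.635 FPKM in control, 1.16 FPKM with PM10 and 1.32 FPKM with OVA+PM10. None of the 3 log2 ratios reached 2-fold: 0.40 (PM10 to control, -0.18 with equal sums), 0.50 (OVA+PM10 to control) and 0.10 (OVA+PM10 to PM10). Ccr8 (chromosome 9, 120092114 to 120094906), the receptor of CCL8 and CCL1, had 0.412, 0.143 and 1.25 FPKM, on about 9.4, 2.1 and 21.7 reads. Under 1 FPKM in both control and PM10, it was not compared between these. The level with OVA+PM10 was 3.03-fold that of control and 8.72-fold that of PM10. The log2 ratios of FPKM + 1 stayed under the 2-fold threshold, so neither was called, at 0.67 to control and 0.97 to PM10. The latter was 1.43 with the length trend removed and 1.07 with equal sums, and with 0.25 FPKM added in place of 1 the values were 1.18 and 1.93. Ccr8, Ccr4 against control, and Ccr3 in both comparisons with the PM10 library passed the filter only through the library in which they were high.

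Read against the level of all genes, 1 of 7 members that passed the filter was called higher with PM10 than control (Ccl17), a share close to the 13.6% of all 13693 genes, and 3 were called lower (Ccl8, Ccl11 and Ccr3), against 13.9% of all genes. With OVA+PM10 against control, 5 of 8 were called higher (Ccl8, Ccl24, Ccl17, Ccl22 and Ccr3), against 9.95%, and none lower, against 8.68%. With OVA+PM10 against PM10, 4 of 8 were called higher (Ccl8, Ccl11, Ccl24 and Ccr3), against 11.8%, and none lower, against 9.0%. With equal sums Ccl22 (1.13) and Ccr8 (1.07) passed 2-fold there too, where 24.0% of all genes were higher. If both libraries of a pair had to reach 1 FPKM, a rule chosen after the data were seen, Ccr3 left the lower members with PM10 (2 of 5, against 9.36% of all genes) and the higher members of OVA+PM10 against PM10 (3 of 6, against 8.3%), and 5 of 6 were higher with OVA+PM10 than control, against 8.84%. The members that passed had median log2 ratios of -0.10, 1.55 and 1.97 in these 3 comparisons, beside 0.02, -0.0017 and -0.03 for all genes tested. The 3 comparisons share libraries, so their counts are not independent of each other.

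**Figure D2:**
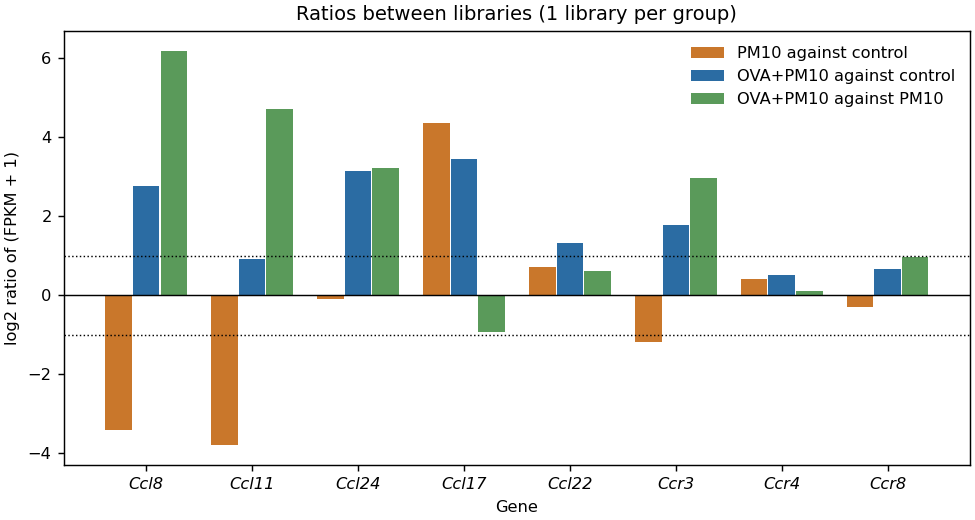
log2 ratio of FPKM + 1 for each gene in the 3 comparisons, each of 1 library with 1 library, with dotted lines at 2-fold. With PM10 against control Ccl17 stands at 4.37 and Ccl8 and Ccl11 at -3.43 and -3.80, whereas no gene is below -1 in the comparisons of OVA+PM10.

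The make-up of the 5 ligands differed between the libraries. Their summed level was 209 FPKM in control, 229 FPKM with PM10 and 1217 FPKM with OVA+PM10. In control, Ccl8 made up 68.3% and Ccl11 24.0% of that sum, and Ccl17 4.23%. With PM10 Ccl17 made up 88.7% and Ccl8 5.39%. With OVA+PM10 Ccl8 made up 79.9%, Ccl17 8.69% and Ccl11 7.83%. These shares come from 1 library each, and do not depend on how libraries are scaled. They are not corrected for the trend over transcript length described below. The receptors summed to 2.63, 1.44 and 10.4 FPKM, of which Ccr3 was 60.2%, 9.27% and 75.4% and Ccr4 24.1%, 80.8% and 12.7%.

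**Figure D3:**
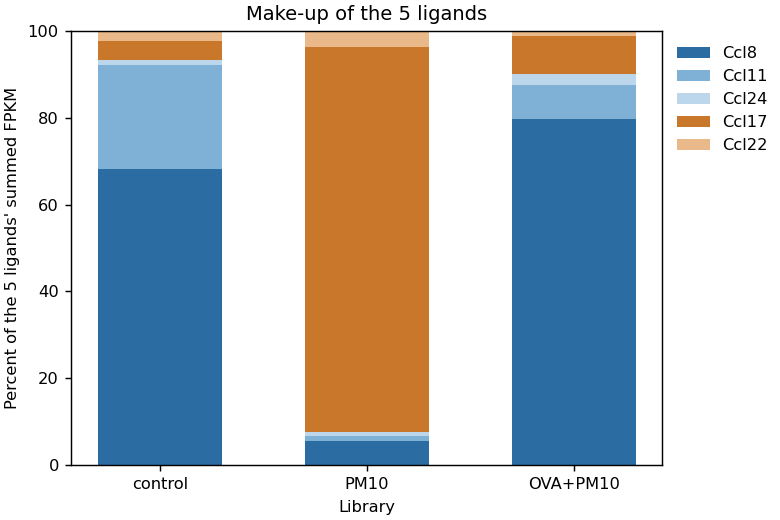
Share of each ligand in the summed FPKM of the 5 ligands, 1 bar per library (summed levels 209, 229 and 1217 FPKM). Ccl8 is the main part in the control and OVA+PM10 bars, at 68.3% and 79.9%, and Ccl17 in the PM10 bar, at 88.7%.

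Ratios also went with transcript length, and the ligands differed beside it. Among 75 genes with transcripts of 459 to 571 bases, the median log2 ratio of PM10 to control was 1.22, with 58.7% called higher and 10.7% lower. Ccl17 and Ccl8 are both of that length, and they stood at 4.37 and -3.43. With the trend over length removed they had 3.02 and -4.78. For Ccl11 the value without the trend was -4.77, and for Ccr3 -1.21. Without the trend, OVA+PM10 against control gave 1.96 for Ccl8, 2.66 for Ccl24, 2.64 for Ccl17 and 1.77 for Ccr3.

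The other CC chemokines give the setting of these 8 genes. Of 16 other ligands, 13 were at 1 FPKM or more in the PM10 or control library, 8 of them higher with PM10 (3 that passed only through that library) and 1 lower (median 1.56), or 6 and 2 with equal sums. Ccl3, an inflammatory macrophage chemokine, had 1.503, 26.6 and 4.40 FPKM. Ccl9, a ligand of CCR1, had 8.89, 63.5 and 55.1 FPKM, and Ccl20, the ligand of CCR6, 0.074, 6.53 and 5.73 FPKM. With OVA+PM10 against control, 10 of 14 were higher (4 only through OVA+PM10) and none lower (median 1.43), or 8 and 2 with equal sums, and with OVA+PM10 against PM10, 3 were higher and 3 lower (median -0.18, or 0.36 with equal sums). Ccl5, which also binds CCR3, had 102 FPKM in control, 226 FPKM with PM10 and 98.1 FPKM with OVA+PM10, an order unlike that of the eotaxins. Ccl26, the gene next to Ccl24, had 0 FPKM throughout.

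Of 11 other CC and atypical receptors, 1 of 9 that passed the filter was higher with PM10 than control (Ccr1), near the 13.6% of all genes. None was lower, against 13.9%. With OVA+PM10 against control, 2 of 10 were higher (1 only through OVA+PM10) and 3 lower. With equal sums these counts were 0 higher and 6 lower of 9, and 1 higher and 5 lower of 11. The 3 lower ones with OVA+PM10 were scavenger receptors, which take up chemokines without the usual signalling. Ackr2, which takes up inflammatory CC chemokines, had 20.5 FPKM in control, 18.5 FPKM with PM10 and 7.76 FPKM with OVA+PM10. Ackr4 had 8.42, 7.61 and 2.84 FPKM, and Ackr3 22.2, 20.0 and 10.3 FPKM. With equal sums, Ackr2, Ackr3 and Ackr4 were also more than 2-fold lower with PM10 than control (-1.324, -1.335 and -1.239). OVA+PM10 then stayed within 2-fold of PM10 for the same genes (-0.6, -0.338 and -0.658). Ackr1, a chemokine-binding protein of venules, had 2.97, 1.43 and 5.91 FPKM.

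Chromosomal neighbours did not all share the members' values. On chromosome 11, Ccl2, Ccl7, Ccl11, Ccl12 and Ccl8 lie in a row on the plus strand. With PM10 against control, Ccl2, Ccl7 and Ccl12, which attract monocytes, had log2 ratios of 0.26, 0.26 and 0.24, while Ccl11 and Ccl8 had -3.80 and -3.43. With OVA+PM10 against control the same 3 stood at 1.83, 1.05 and 2.29. With equal sums the 3 had -0.73, -0.75 and -0.86 with PM10 and 1.32, 0.52 and 1.72 with OVA+PM10. With PM10, then, the monocyte ligands stayed within 2-fold of control on both scales while the 2 members among them lay far below it. On chromosome 8, Cx3cl1 lies between Ccl22 and Ccl17 and had 12.6, 9.51 and 7.87 FPKM, within 2-fold in each comparison (with equal sums -1.51 and -1.23 to control, for PM10 and OVA+PM10). Next to Ccr3 on chromosome 9, Ccr1 had 3.28, 8.18 and 10.4 FPKM, while Ccr2 stood at 0.33 for PM10 against control (-0.83 with equal sums), where Ccr3 had -1.19.

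**Figure D4:**
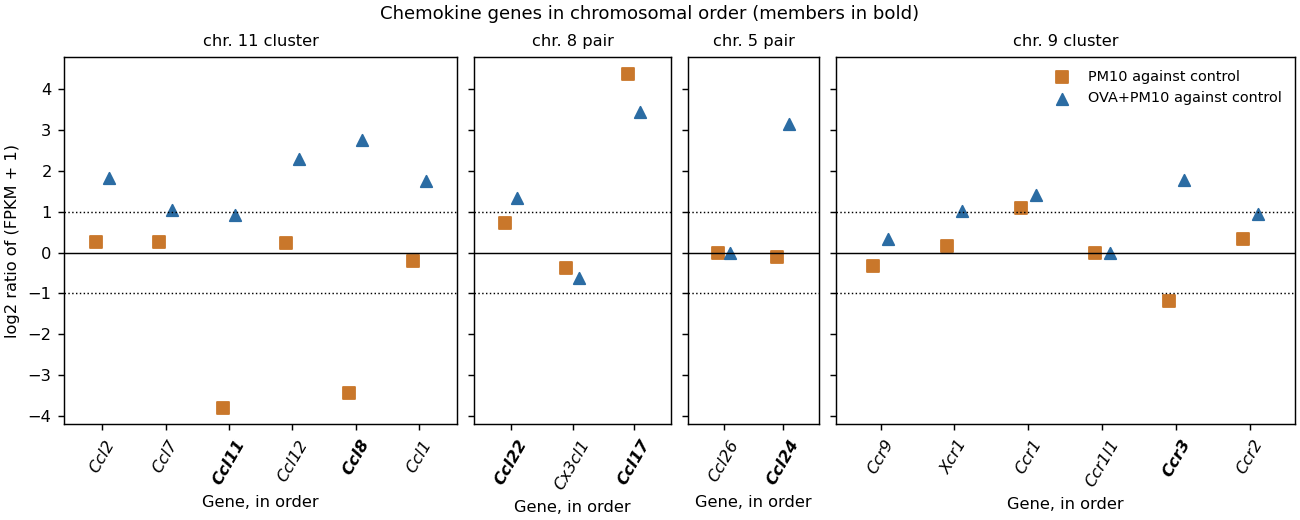
log2 ratio of FPKM + 1 to control for chemokine and receptor genes in their order on 4 chromosomes, 1 point per gene and exposed library, with the 6 members that lie there in bold (Ccr4 and Ccr8 lie elsewhere) and dotted lines at 2-fold; both ratios share the control library. Ccl11 and Ccl8 lie at -3.80 and -3.43 with PM10, below their neighbours.

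The cytokine genes upstream of these ligands were low. Il4 had 0.223, 1.20 and 4.28 FPKM, Il13 had 0.130, 0 and 2.13 FPKM, and Il5, the eosinophil growth factor, had 0.163, 0.205 and 1.07 FPKM. The cytokine receptor chains Il4ra (24.4, 32.8 and 18.2 FPKM) and Il13ra1 (15.0, 13.2 and 20.0 FPKM) and the signal transducer Stat6 (34.2, 32.7 and 28.7 FPKM) stayed within 2-fold in all comparisons. With equal sums, Il13ra1 (-1.34) and Stat6 (-1.27) were lower with PM10 than control, Il4ra (-1.04) was lower with OVA+PM10 than control, and Il13ra1 (1.11) was higher with OVA+PM10 than PM10. Irf4, a transcription factor of dendritic cells and type 2 macrophages, had 1.99, 1.75 and 15.2 FPKM. The epithelial alarmin Tslp had 2.25, 6.45 and 1.15 FPKM, its highest value being with PM10 and its lowest with OVA+PM10. Of 20 genes in this list, 2 of 14 were higher with PM10 than control, close to the 13.6% of all genes, and none lower, against 13.9%. With OVA+PM10 against control, 4 of 15 were higher, against 9.95%, and none lower, against 8.68%. Of these higher genes, 1 passed only through PM10 and 2 only through OVA+PM10. With equal sums, 0 of 13 were higher and 5 lower with PM10, and 3 of 16 higher and 3 lower with OVA+PM10.

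Genes of cells that bear or make these molecules differed beside them, and their part in the members' values was not tested. For eosinophils, which carry CCR3, the 12 markers summed to 238, 333 and 856 FPKM. None of 7 was higher and 3 were lower with PM10 than control (0 and 4 of 8 with equal sums), and all 3 passed only through control. With OVA+PM10 against control, 8 of 12 were higher and none lower (6 and 0), and 5 of those 8, Prg3, Epx, Il5ra, Cebpe and Gata1, passed only through OVA+PM10 and could not have been called lower. The granule genes Prg2 (1.04, 0 and 191 FPKM) and Ear6 (2.60, 0 and 47.2 FPKM) were listed at 0 in the PM10 library. So were Prg3 (0.529, 0 and 6.40 FPKM) and Epx (0.035, 0 and 2.95 FPKM), but both were under 1 FPKM in control too. The 0 of Prg3 and Epx therefore says little about a difference from control. Ear1, Ear2 and Siglecf, which alveolar macrophages share, were not low in the PM10 library, at 74.6, 230.3 and 7.97 FPKM. Reads of the near-identical Ear genes may have been divided wrongly. Alox15, an eosinophil and macrophage lipoxygenase, had 19.8, 0.216 and 26.8 FPKM.

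For fibroblasts and smooth muscle, among the known sources of CCL11, the 11 fibroblast markers summed to 742, 261 and 718 FPKM and the 8 smooth muscle markers to 579, 288 and 801 FPKM. With PM10 against control, 5 fibroblast genes were lower and none higher, and 6 smooth muscle genes were lower and none higher (10 and 8 lower with equal sums). With OVA+PM10 against PM10, 6 of each were higher, and 1 fibroblast gene was lower (6 and 8 higher with equal sums). Between OVA+PM10 and control, 2 of 11 fibroblast genes were higher with OVA+PM10 and 6 lower (median -1.17, or 0 and 6 with equal sums), while the sums of the list were close, and 1 of 8 smooth muscle genes was higher and 1 lower (0 and 1). The matrix proteoglycans Dcn and Lum had 246, 8.40 and 91.8 FPKM and 38.6, 1.38 and 5.22 FPKM. At 29.3-fold and 27.9-fold lower with PM10 than control, they had the largest differences of the fibroblast list. Its median log2 ratio there was -0.92 (-2.15 with equal sums), and without scaling 6 of the 11 genes were within 2-fold. Col1a1, a collagen chain, had 52.5, 13.1 and 135 FPKM, and Myh11, smooth muscle myosin, 42.1, 8.37 and 68.7 FPKM.

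For tissue macrophages, 3 of 13 markers were higher and 4 lower with PM10 than control (1 and 7 with equal sums). Of those 4, 2 passed only through control. With OVA+PM10 against control, 6 were higher and 1 lower (6 and 2). Cd163, a haemoglobin receptor of interstitial macrophages, had 4.47, 0 and 3.88 FPKM, and no other of the 13 was at 0. Folr2, a folate receptor of the same cells, had 11.8, 0.861 and 18.7 FPKM, an order shared with Ccl8. C1qa, present in most macrophages, had 80.6, 154 and 281 FPKM and was not low in the PM10 library. The whole list summed to 653, 2129 and 38407 FPKM, most of it in the exposed libraries from Retnla, with 245, 1611 and 37463 FPKM. The 11 alveolar macrophage markers summed to 543, 1513 and 2886 FPKM, most of it with OVA+PM10 from Chil3 (93.4, 641 and 2106 FPKM). Of the 11, 4 were higher and none lower with PM10 than control (3 and 2 with equal sums). With OVA+PM10 against control, 3 were higher and 2 lower (2 and 2). With OVA+PM10 against PM10, 1 was higher and 5 lower (3 and 3), Fabp1 having 20.5, 32.1 and 1.28 FPKM. For dendritic cells, the 12 markers summed to 233, 286 and 641 FPKM, most of it Cd24a (151, 170 and 482 FPKM). Of the 12, 3 were higher and 1 lower with PM10 than control (0 and 6 with equal sums), and 6 were higher and none lower with OVA+PM10 (3 and 3). The 3 higher with PM10 were Itgax (11.5, 31.8 and 45.8 FPKM), Mgl2 (14.9, 32.7 and 34.6 FPKM) and Cd209a (7.26, 16.4 and 13.1 FPKM). The lower one was Zbtb46, a transcription factor of conventional dendritic cells (8.36, 1.97 and 5.03 FPKM), and Fscn1, a marker of mature dendritic cells, had 12.2, 5.66 and 17.0 FPKM.

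For the T cells that carry CCR4 and CCR8, 15 of 16 markers had values, Trac being not analysed here. They summed to 54.7, 132 and 123 FPKM, with 4 of 12 higher and 1 lower with PM10 than control and 6 of 14 higher and none lower with OVA+PM10 (1 and 3 of 10, and 3 and 0 of 15, with equal sums). Of the 4 higher with PM10, 1 passed only through PM10. Of the 6 higher with OVA+PM10, 3 passed only through OVA+PM10. Foxp3, the regulatory T cell factor, had 0.568, 0.546 and 1.09 FPKM, and Gata3, the type 2 helper factor, 0.744, 3.32 and 0.663 FPKM. Of the T cell receptor complex, Cd3d (9.04, 46.9 and 24.3 FPKM) and Cd3g (15.5, 54.0 and 37.1 FPKM) were higher with PM10 than control, and Cd3e (11.9, 4.76 and 16.0 FPKM) was lower. The activation receptor Tnfrsf4 had 0.688, 1.08 and 5.12 FPKM. Of basophil and mast cell genes, which belong to other cells of type 2 inflammation, Prss34 had 0.129, 0.067 and 2.93 FPKM and Tpsb2 5.28, 0 and 2.08 FPKM. The 8 genes summed to 57.4, 28.7 and 28.2 FPKM, of which Kit was 38.6, 14.3 and 13.9 FPKM. With PM10 against control, 1 of 6 was higher (only through PM10) and 3 lower, 2 of them only through control. With OVA+PM10 against control, 2 of 7 were higher (each only through OVA+PM10) and 3 lower. With equal sums, 0 of 5 were higher and 3 lower with PM10, and 2 of 7 higher and 4 lower with OVA+PM10. The 10 airway secretory and mucous cell genes summed to 44411, 53590 and 74001 FPKM, most of it Scgb1a1 (42979, 50391 and 65013 FPKM). Of that list, 1 of 8 was higher and 4 lower with PM10 than control (median -0.46, or 0 and 5 with equal sums), and 8 of 10 were higher and none lower with OVA+PM10 (median 3.45, or 8 and 0), 4 of them only through OVA+PM10. Of the 4 lower with PM10, 3 passed only through control. Clca1, a secreted product of mucous cells, had 0.695, 2.24 and 5628 FPKM.

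The genes with the most similar values were found by the distance between their 2 log2 ratios to control, over the 3 libraries, among 9972 other genes with at least 5 FPKM in a library. Because 3 libraries give only 2 ratios, many genes lie near any pattern, and those named are a description. Nearest to Ccl8 were the secreted airway proteins Reg3g (41.5, 1.20 and 330.0 FPKM) and Bpifb1 (32.1, 0.619 and 380 FPKM), at distances of 0.87 and 1.20, then Ear6 at 1.86. Nearest to Ccl11 were Alox15 at 0.58, the B cell chemokine Cxcl13 (30.3, 2.92 and 39.7 FPKM) at 0.96 and Fxyd3 at 0.97. Nearest to Ccl17 were Trem2, a lipid receptor of macrophages (3.05, 56.5 and 35.8 FPKM), at 0.60, the acute phase gene Saa3 (7.68, 115 and 185 FPKM) at 1.17, and the protease gene Ctsk (18.1, 207 and 101 FPKM) at 1.37. Around the smaller ratios of the others, genes lay closer: Guca2a, Rsph14 and Chad within 0.31 of Ccl24, Abhd3, Cldn3 and Lrrc10b within 0.059 of Ccl22, and Fam46c, the mast cell tryptase Tpsab1 and Alox12e within 0.28 of Ccr3. Ccr4 and Ccr8, under 5 FPKM throughout, were not matched.

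No stretch of 50 bases in the annotated transcripts of Ccl8, Ccl11, Ccl24, Ccl17, Ccl22, Ccr3 and Ccr8 occurs in the transcripts of another gene, and 14 of 3010 in Ccr4 do (0.465%). The sources used here give neither the read length nor the handling of reads with several matches.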

How the data were processed

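The authors deposited a table of FPKM for each library. The headers name no unit, and FPKM was read from the values. The submitters' processing notes name TopHat and mm10, while the counting program, annotation and strand setting are not stated in the sources used here. Per the labels' protocols, 1.3 µg of Trizol RNA went into strand-preserving libraries. Groups came from the titles. The members and the 17 other gene lists were chosen with earlier results of these data known.

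Log2 ratios of FPKM + 1 were computed without scaling (Python 3.11.15, pandas 2.3.3), with code tested on simulated data. With 1 library per group no test was possible. Approximate reads are FPKM times the longest transcript, divided by the commonest low value of that product in genes with 1 transcript. Lengths and coordinates come from GENCODE M21 (GRCm38), matched by symbol for 22148 genes (95.5%). The length trend is a running median over 501 genes. By rule, the text names all members, up to 4 genes per list with the largest ratios, a fixed set of pathway genes, and the 3 nearest genes in pattern per member. Outside that rule, and chosen after their values were seen, are Ackr3, Ackr4, Ear1, Ear2, Siglecf, Il5ra, Cebpe, Gata1, C1qa, Mgl2, Cd209a, Zbtb46, Fscn1, Cd3e, Scgb1a1 and the chromosomal neighbours. One gene of the receptor list is not reported here. An FPKM of 0 may be a failed estimate, so such genes are given no fold.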

Additional observations from a re-analysis of the deposited data

How the results depend on the processing

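Alternatives were a pseudocount of 0.25 or 5 FPKM, no filter or one at 5 FPKM, thresholds of 4-fold and 1.5-fold, median-ratio scaling, scaling to an equal FPKM sum, removal of the length trend and, chosen after seeing the data, 1 FPKM asked of both libraries. None reversed a member's call: of 13 member ratios of 2-fold or more, 13 stayed so with 0.25 FPKM, no filter, median-ratio scaling or no length trend, 12 with equal sums, 10 with 5 FPKM added, and all 12 and 11 that could be compared at the 5 FPKM filter and with both libraries at 1 FPKM. Of 60 counts of called members under alternatives, 56 stayed within 1.5 times. OVA+PM10 against control had 3 of 8 members higher with 5 FPKM added and 3 at 4-fold, beside 694 and 207 of all 13877 genes. At 1.5-fold, PM10 against control had 2 of 7 higher, beside 3606 of all 13693 genes, and OVA+PM10 against PM10 had 1 of 8 lower, beside 3046 of 13556. The members' medians depended more on the setting, and the cause was not tested. For PM10 against control the median was -0.202 without a filter, -1.356 at 5 FPKM (4 members left), -0.996 with equal sums and -0.901 without the length trend. For OVA+PM10 against control it was 1.794 and 0.942 with 0.25 and 5 FPKM added, 2.268 at the 5 FPKM filter and 1.065 with equal sums (2.268 also with both libraries at 1 FPKM). For OVA+PM10 against PM10 it was 2.748, 0.889, 3.1 and 2.108 in the same order, and 2.205 without the length trend. Over all genes, equal sums gave 249 higher and 7226 lower in the first comparison (PM10 to control), 617 and 3459 in the next (OVA+PM10 to control) and 3211 and 321 in the last (OVA+PM10 to PM10), and 5 FPKM added gave 1267 and 749, 694 and 524, and 476 and 668. No paired analysis was possible because each group has 1 library. Values below 1 FPKM (Ccr3 with PM10, Ccr4 in control, Ccr8) rest on few reads.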
